A study of Mus musculus with 36 samples.

Results

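Hypothalamus RNA of the inbred strain NZO/HlLtJ was compared with that of C57BL/6J on the control diet, across all genes and without regard to sex differences, by giving females and males equal weight. The comparison used 12 of the 36 libraries of the study, 6 per strain, each with 3 females and 3 males, and tested 20053 of 24265 genes. All animals were labelled wild type, received the 10% fat diet with fiber from 6 weeks of age and were sampled at 15 weeks. The other 24 libraries, from CAST/EiJ on either diet and from both strains on a diet high in fat and sugar (HFHS, 44% fat), entered the fit for its estimate of spread and are described where they bear on the comparison. The labels number the libraries and do not say that each came from a separate animal, so p-values measure the spread between these samples, which may be technical.

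The hypothalamus joins the brain to the endocrine system and holds neurons that drive or restrain feeding, among them those making Npy and Agrp and those making Pomc and Cartpt, which read leptin and insulin. NZO/HlLtJ, the New Zealand Obese mouse, is an inbred polygenic model of obesity in which many males become diabetic, while C57BL/6J is the strain of the mouse reference genome and the usual control. Inbred strains differ in single nucleotides, in insertions and deletions and in the number of gene copies, and a difference in RNA between them may stem from the gene itself, from a regulator elsewhere or from the animal's state. In bulk tissue, fewer cells of a type and less RNA per cell cannot be told apart.

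Levels are given as CPM, that is, counts after scaling every library to one total, as the lowest, the median and the highest of the 6 libraries of a strain. Changes are log2 estimates of NZO/HlLtJ less C57BL/6J ± standard error from edgeR's quasi-likelihood test, and a gene is called, and said to be higher or lower, at a Benjamini-Hochberg adjusted p under 0.05 over all tested genes. The 12 libraries held 23.9 to 47.2 M counts (median 33.2 M), and the common biological coefficient of variation over the 36 libraries was 12.1%. Mitochondrial transcripts took 4.22% to 5.0% of counts in NZO/HlLtJ and 4.79% to 6.16% in C57BL/6J. All 15 hypothalamus markers were detected, 1 of them, Pmch, was called, and their summed level overlapped between the strains (715 to 977 CPM in the NZO/HlLtJ libraries and 565 to 834 CPM in the C57BL/6J libraries). Some libraries stood apart: NZO/HlLtJ female 2 and C57BL/6J female 2 carried the most RNA of 10 thalamus markers, 1.59 and 1.07 on a centred log2 scale where the other 10 lay between −0.71 and 0.54. C57BL/6J male 3 had the lowest immediate early gene level of the 12, and NZO/HlLtJ female 1 and NZO/HlLtJ male 1 the lowest levels of reactive glia genes within their strain. Below, the 3 libraries low in these genes are called the 3 that stood apart, and the first 2 those high in thalamus markers. Where leaving out either set or 1 library moved the count of a gene list by over 1.5 times, that is given with the list. Of the hypothalamus markers, 3 were higher without C57BL/6J female 1, 2 without NZO/HlLtJ female 2 and none without the 3 that stood apart.

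The strains differed at 3555 genes, 17.7% of those tested, of which 1693 (8.44%) were higher and 1862 (9.29%) lower in NZO/HlLtJ. Most differences were small, with 2151 of the called genes (60.5%) under 1.5-fold and a median absolute log2 change of 0.43 among called and 0.14 among all tested genes. A change of at least 1 on the log2 scale was called at 881 genes (4.39%), 419 higher and 462 lower, and one of at least 3 at 196 genes, 86 higher and 110 lower. In 1883 of the called genes (53.0%) every NZO/HlLtJ library lay on the same side of every C57BL/6J library. Over all 20053 tested genes this held for 2057, and calling a gene favours such separation. The called share was 18.4% among protein-coding genes, 15.3% among long noncoding genes and 17.5% among pseudogenes. Among the 2398 genes over 100 CPM the calls leaned down, with 113 higher and 306 lower, where the genes of 1 to 10 CPM leaned slightly up, with 501 and 451. Strain was the main axis of the 12 libraries. The leading principal component, with 37.2% of the variance, placed the NZO/HlLtJ libraries at 34.5 to 43.6 and those of C57BL/6J at −42.4 to −32.9.

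The genes higher in NZO/HlLtJ with the smallest p included a zinc finger gene, a prohormone chaperone, a complement component and an inhibitory receptor subunit, and in each of the 12 the strains did not overlap. Zfp949, a zinc finger gene (chr9:88548020-88571061, GRCm38 as are all positions), lay at 67.9 to 79.5 CPM (median 72.9) in NZO/HlLtJ against 21.7 to 25.1 CPM (median 24.3) in C57BL/6J (log2 change 1.63 ± 0.053, adjusted p = 1.04e-20). Wdfy1, whose protein binds endosomal membranes through a FYVE domain, lay at 99.1 to 107 CPM (median 102) against 26.7 to 37.1 CPM (median 29.3) (log2 change 1.77 ± 0.059, adjusted p = 1.74e-20). Every NZO/HlLtJ library was thus far above every C57BL/6J library for both genes. Scg5 encodes 7B2, the chaperone that prohormone convertase 2 needs to mature, and lay at 307 to 336 CPM (median 320.3) against 147 to 174 CPM (median 154) (log2 change 1.02 ± 0.053, adjusted p = 1.15e-15; chr2:113776362-113829121). Padi2, an enzyme that turns arginine into citrulline in proteins and is abundant in oligodendrocytes, lay at 143 to 183 CPM (median 153) against 27.9 to 38.8 CPM (median 31.6) (log2 change 2.27 ± 0.095, adjusted p = 6.52e-18). For both, the lowest NZO/HlLtJ library was well above the highest C57BL/6J library. Pla2g4e, a calcium-dependent acyltransferase of endocannabinoid precursor synthesis, lay at 47.5 to 60.8 CPM (median 55.1) against 6.21 to 14 CPM (median 6.88) (log2 change 2.76 ± 0.14, adjusted p = 1.15e-15). Invs encodes inversin, a protein of the primary cilium (log2 change 1.06 ± 0.06, adjusted p = 1.31e-14), and Noc2l a nucleolar inhibitor of histone acetyltransferases (log2 change 1.14 ± 0.064, adjusted p = 9.04e-15). The remaining members of the 12 were C4b, Gabra2, Tagap, Prss41 and Tpm3-rs7, which are described with their pathways, neighbours or copies below.

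**Figure D1:**
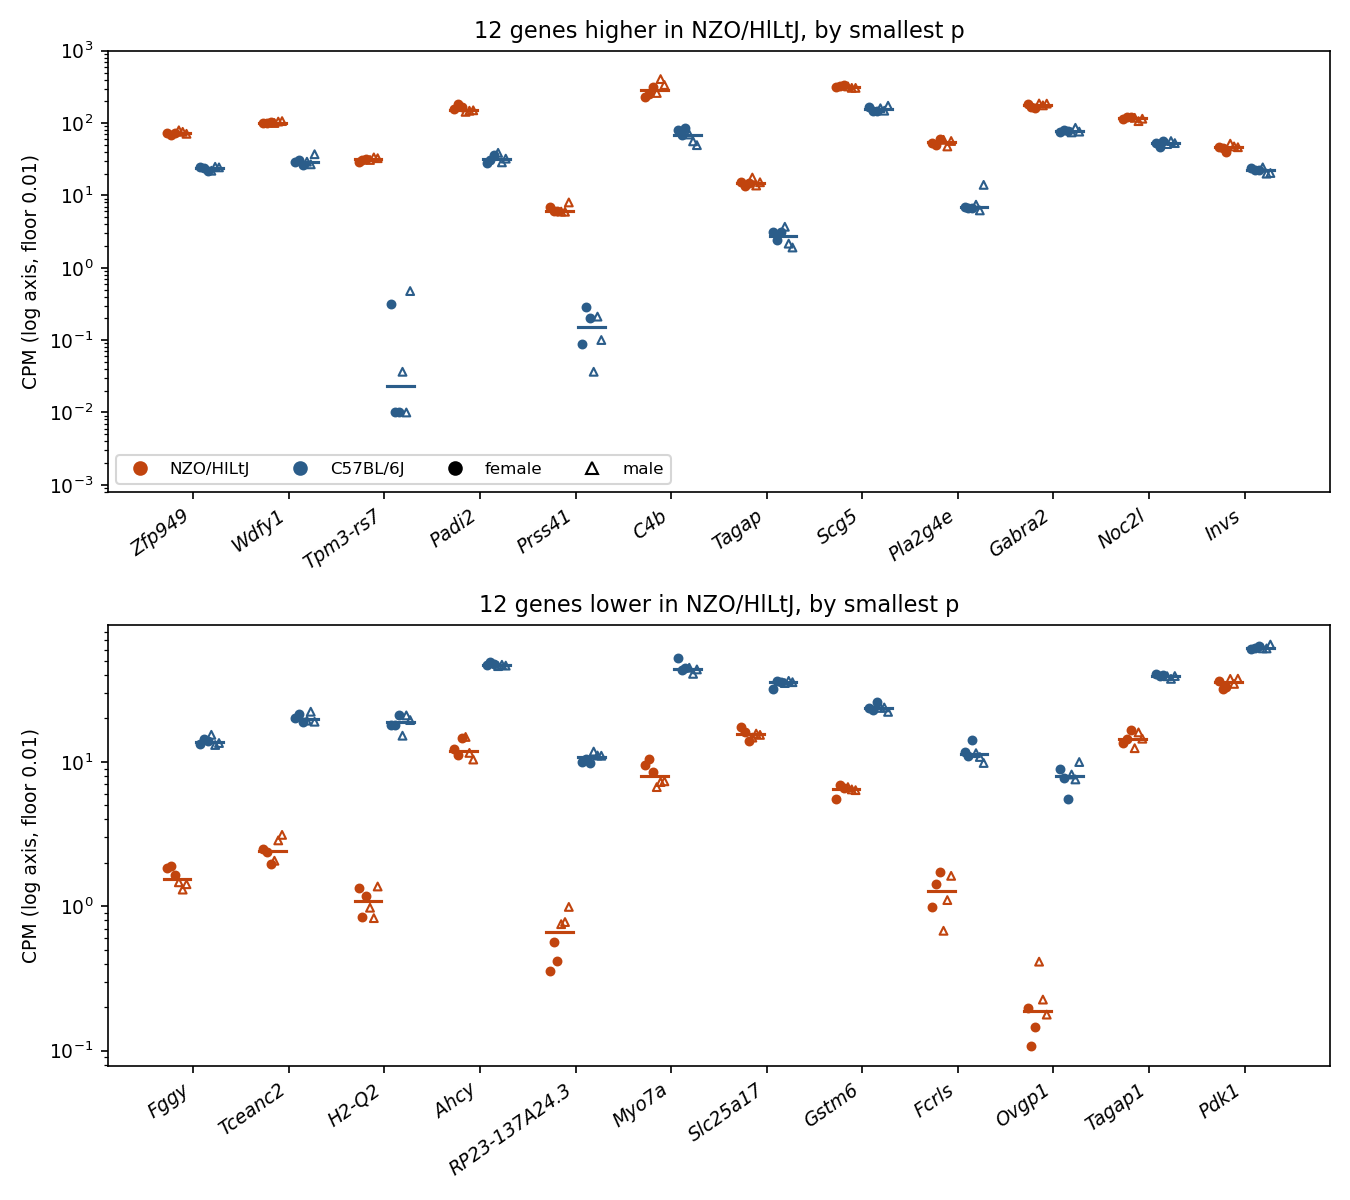
Levels of the 12 genes with the smallest p in each direction, in CPM on a log axis with values under 0.01 drawn at 0.01. Each point is 1 library, circles are females and open triangles males, and the bars are medians of the 6 libraries of a strain. In none of the 24 genes do the strains overlap.

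The genes lower in NZO/HlLtJ with the smallest p had no single function in common by their known roles. Fggy, a carbohydrate kinase (chr4:95557507-95926939), had the smallest p of the named genes, at 1.31 to 1.9 CPM (median 1.55) in NZO/HlLtJ against 13.1 to 15.4 CPM (median 13.7) in C57BL/6J (log2 change −3.14 ± 0.081, adjusted p = 3.10e-23). Tceanc2, a gene with elongation factor domains (chr4:107134155-107179116), lay at 1.95 to 3.12 CPM (median 2.44) against 18.9 to 22.3 CPM (median 19.7) (log2 change −3.03 ± 0.089, adjusted p = 9.57e-22). Both genes were low in all 6 NZO/HlLtJ libraries and at a several-fold higher level in all 6 of C57BL/6J, with no overlap. Myo7a, an unconventional myosin best known from the hair cells of the inner ear, lay at 6.7 to 10.5 CPM (median 7.95) against 40.7 to 52.2 CPM (median 44.2) (log2 change −2.45 ± 0.11, adjusted p = 2.55e-17). Fcrls, a scavenger receptor-like gene used as a microglia marker, lay at 0.677 to 1.72 CPM (median 1.27) against 9.83 to 14.2 CPM (median 11.3) (log2 change −3.15 ± 0.15, adjusted p = 1.66e-16). NZO/HlLtJ again lay below C57BL/6J without overlap, while of 8 other microglia markers 1 was lower, as described below. Slc25a17, a peroxisomal carrier of coenzyme A and nucleotides, changed by −1.18 ± 0.053 (adjusted p = 3.23e-17), and Pdk1, a kinase that inhibits pyruvate dehydrogenase, by −0.82 ± 0.043 (adjusted p = 1.17e-15). Ovgp1 (−5.33 ± 0.27, adjusted p = 5.87e-16), an oviductal glycoprotein of the chitinase family, and its relative Chia1 (−5.87 ± 0.39, adjusted p = 3.83e-13), an acidic chitinase, are near neighbours on chromosome 3. The smallest p of any gene belonged to an unnamed transcript model, 4933431E20Rik (chr3:107888850-107896213), at 3.76 to 5.37 CPM (median 4.66) in NZO/HlLtJ and 98.5 to 114 CPM (median 105) in C57BL/6J (log2 change −4.54 ± 0.074, adjusted p = 8.73e-29).

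That transcript lies beside a cluster of glutathione S-transferase genes of the mu class, enzymes that couple glutathione to reactive compounds, and the cluster changed in both directions. Gstm5 fell, with 26.7 to 34 CPM (median 29.5) in NZO/HlLtJ against 70.4 to 86.5 CPM (median 76.5) in C57BL/6J (log2 change −1.40 ± 0.087, adjusted p = 8.01e-14). Gstm6 was lower as well, at 5.52 to 6.92 CPM (median 6.53) against 22.2 to 26.1 CPM (median 23.6) (log2 change −1.88 ± 0.084, adjusted p = 3.23e-17). Gstm7 was higher, at 48.3 to 58.3 CPM (median 50.5) against 24.3 to 30.1 CPM (median 27.2) (log2 change 0.94 ± 0.06, adjusted p = 1.36e-13), and so was Gstm4 (log2 change 0.99 ± 0.068, adjusted p = 1.02e-12). None of the 4 genes overlapped between the strains, so 2 members stood clearly below and 2 clearly above. Over the 16 glutathione S-transferase genes tested, 2 were higher and 3 lower, with a median log2 change of −0.048 where that of all tested genes was 0.0035.

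Where the size of the change rather than its p chose the gene, several genes were nearly absent from 1 strain. Slc36a2, a proton-coupled amino acid transporter, lay at 0 to 0.0502 CPM (median 0.0324) in NZO/HlLtJ and 1.89 to 3.49 CPM (median 2.02) in C57BL/6J (log2 change −6.21 ± 0.50, adjusted p = 4.40e-11). Rec8, a subunit of the meiotic cohesin, lay at 0.298 to 0.564 CPM (median 0.354) against 10.7 to 19.5 CPM (median 15.2) (log2 change −5.36 ± 0.33, adjusted p = 7.56e-14; chr14:55618037-55625395). Slc36a2 was nearly absent from the NZO/HlLtJ libraries and Rec8 far lower in them, both without overlap. The largest estimates were not always the most even. Bpifa1, an airway surfactant gene, lay at 0.0762 to 6.45 CPM (median 1.82) against 0 to 0.407 CPM (median 0.0125) (log2 change 5.27 ± 1.59, adjusted p = 0.0182), and Zfhx2os, antisense to a homeobox gene, at 0 to 1.06 CPM (median 0.125) against 0.0365 to 3.38 CPM (median 2.42) (log2 change −5.37 ± 0.80, adjusted p = 9.22e-06), each with overlapping strains. Bpifa1 was not called in 2 of 12 fits that left out 1 library, those without C57BL/6J male 3 and without NZO/HlLtJ male 2. By criteria chosen after the values were seen, 7 genes had a mean of at least 1 CPM in NZO/HlLtJ with under 0.1 CPM in every C57BL/6J library, among them Trim34b, and 9 genes showed the reverse, among them Zfp607. Every gene of the deposited table was detected in 19 or more of the 36 libraries, so genes seen in a single strain are not among these counts. The submitters name GRCm38, the C57BL/6J reference, as the build. No source used here says whether NZO/HlLtJ reads were mapped to a genome of their own strain, and the part of that choice in genes near 0 in NZO/HlLtJ was not tested.

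Several of the largest differences were in genes that share most of their sequence with another locus, where the authors' estimated counts divide reads between the copies. Of the 16052 tested genes with no run of 100 bases in common with a transcript of another gene, 17% were called and 0.561% had a called change of at least 3 on the log2 scale. Of the 716 genes with over 50% of their windows of 100 bases also found in transcripts of another gene, 25.6% were called and 6.70% had a change that large. For 6 genes with a near-identical copy, the copy and the sum over the pair are given beside the gene, the pairs having been chosen after their values were seen.

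Ahcy, the enzyme that clears S-adenosylhomocysteine after methyl transfer, was among the 12 lower genes with the smallest p, at 10.4 to 14.9 CPM (median 11.9) in NZO/HlLtJ against 46.1 to 49.3 CPM (median 47) in C57BL/6J (log2 change −1.92 ± 0.082, adjusted p = 9.89e-18). Its copy Gm4737 on chromosome 16 moved the other way, at 34 to 42.6 CPM (median 36.7) against 0 to 0.753 CPM (median 0) (log2 change 7.55 ± 0.53, adjusted p = 1.29e-12). The sum over both lay at 45.5 to 57.2 CPM in NZO/HlLtJ and 46.1 to 49.3 CPM in C57BL/6J, with overlap and a ratio of the means of 1.04. Their coding sequences of 1299 bases differ at 4 positions, 2 of which fall in the stretch of 60 coding bases shown here (chr16:46153925-46153984 and chr2:155062228-155062287, each on the minus strand, from GENCODE M21 transcripts). Capitals mark the differing bases, T22C and T40C counted from 1 at the 5′ end of the stretch with the base of Gm4737 first.
Gm4737: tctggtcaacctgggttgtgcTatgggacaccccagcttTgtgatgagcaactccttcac
Ahcy: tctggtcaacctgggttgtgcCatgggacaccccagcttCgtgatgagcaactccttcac

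Hba-a1 and Hba-a2 are tandem genes for adult alpha globin on chromosome 11, expressed by red cells. Hba-a1 lay at 134 to 341 CPM (median 206) in NZO/HlLtJ against 0.767 to 16.8 CPM (median 2.15) in C57BL/6J (log2 change 5.81 ± 0.42, adjusted p = 3.05e-12), without overlap. Hba-a2 lay at 232 to 575 CPM (median 366) against 156 to 566 CPM (median 401) and was not called (log2 change −0.12 ± 0.21, adjusted p = 0.778). The pair summed to 371 to 916 CPM and 158 to 568 CPM, which overlap. Of the 429 coding bases 1 differs, T31C in the stretch below with the base of Hba-a2 first (chr11:32297130-32297189 and chr11:32284313-32284372, plus strand). The other red cell genes of the list, such as Hbb-bs (log2 change 0.39 ± 0.22, adjusted p = 0.251) and Hbb-bt (log2 change 0.29 ± 0.24, adjusted p = 0.472), were not called.
Hba-a2: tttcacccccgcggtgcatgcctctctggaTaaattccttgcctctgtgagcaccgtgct
Hba-a1: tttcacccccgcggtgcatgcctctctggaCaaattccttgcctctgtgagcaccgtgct

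The same opposition of a gene and its copy occurred in related sequences of widely expressed enzymes and structural proteins. Pgk1-rs7, a copy on chromosome 12 of the glycolytic kinase gene Pgk1 on X, lay at 89.6 to 116 CPM (median 105) against 0 to 10.3 CPM (median 0.174) (log2 change 6.36 ± 0.46, adjusted p = 8.42e-12), while Pgk1 itself lay at 158 to 208 CPM (median 167) against 304 to 318 CPM (median 312) (log2 change −0.84 ± 0.055, adjusted p = 2.68e-13). The pair moved in opposite directions without overlap, and their sum, with means of 279 and 313 CPM, remained lower in all NZO/HlLtJ libraries. No base differed over 1253 aligned coding bases. Tpm3-rs7, a tropomyosin copy on chromosome 14, was at 29.2 to 33.6 CPM (median 31.8) against 0 to 0.477 CPM (median 0.0183), and Tpm3 fell (log2 change −0.63 ± 0.054, adjusted p = 1.58e-10), with sums of 108 and 118 CPM that overlapped. Hist2h2aa2 and Hist2h2aa1, adjacent histone H2A genes with identical coding sequences of 393 bases, had means of 5.83 and 2.7 CPM in NZO/HlLtJ against 0.0211 and 10.5 in C57BL/6J. How much of each single-gene change reflects the division of reads between copies was not tested. In contrast, both Srp54a (log2 change −2.14 ± 0.18, adjusted p = 5.83e-11) and Srp54b (log2 change −0.55 ± 0.045, adjusted p = 4.30e-11), copies of a signal recognition particle subunit on chromosome 12 with no differing coding base, were lower, and their sum fell to a mean of 158 CPM from 249.9 CPM without overlap.

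**Figure D2:**
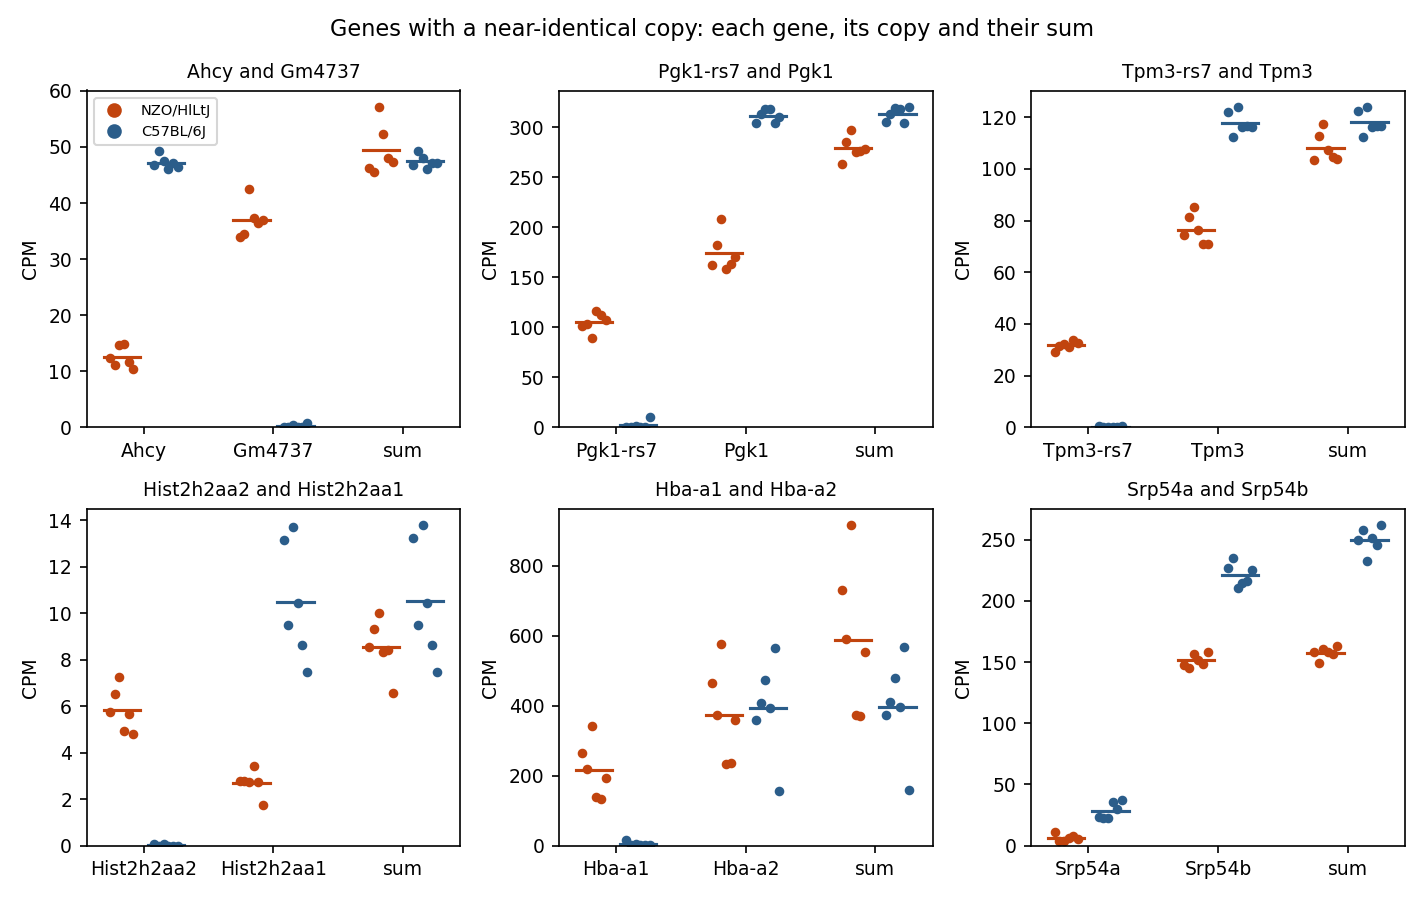
Levels in CPM of 6 genes, of their near-identical copy and of the sum of both, with 1 point per library and bars at the strain means. In the Ahcy, Tpm3-rs7, Hist2h2aa2 and Hba-a1 panels the strains overlap in the sum although they do not overlap in the gene named first.

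Called genes were spread over all chromosomes, in shares that differed between chromosomes. The lowest shares were 11.5% on chromosome 10, 13.1% on X and 13.9% on chromosome 16. The highest among chromosomes with at least 100 tested genes were 22.3% on chromosome 17, 22.2% on 14 and 22% on 18. Chromosome 17, which carries the major histocompatibility complex, had more called genes higher (111) than lower (92), while chromosomes 14 (63 and 93) and 18 (42 and 71) leaned the other way. On X, the strains differed at 36 genes up and 51 down of 664. Of 15 mitochondrial genes 10 were lower (66.7%) and none higher, where 9.29% of all genes were lower. These shares are descriptions, because neighbouring genes share haplotypes and are not independent.

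**Figure D3:**
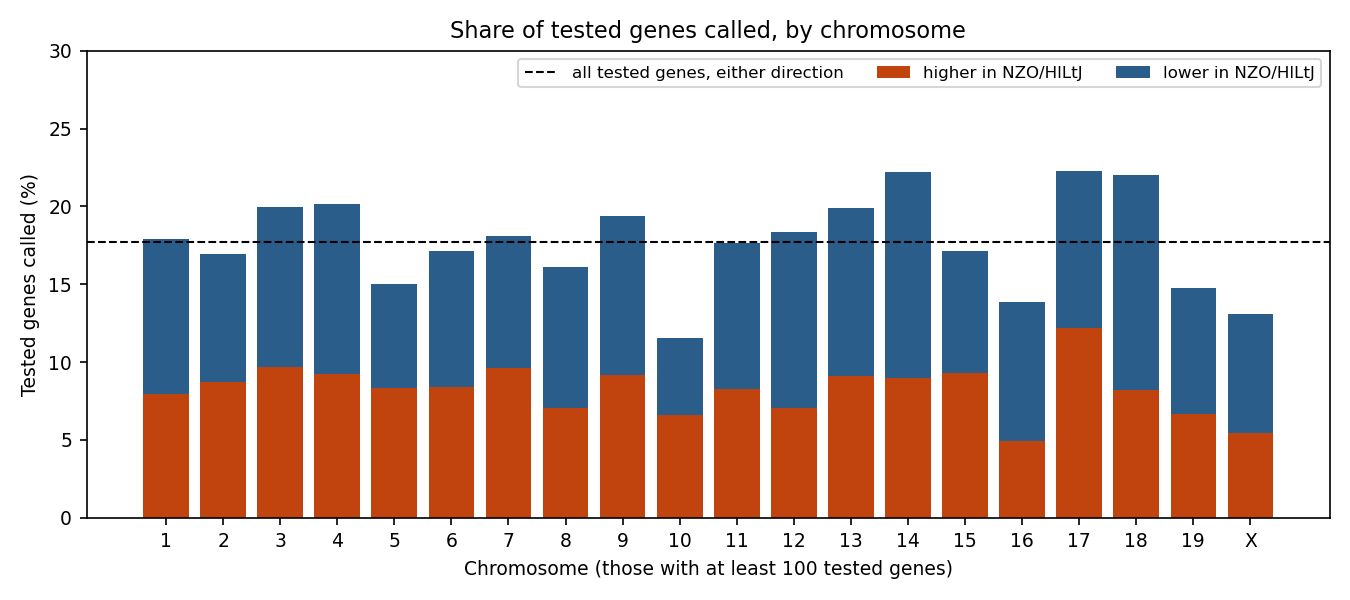
Percent of tested genes called on each chromosome with at least 100 tested genes, split into genes higher (lower segment of each bar) and lower in NZO/HlLtJ. The dashed line is the share over all tested genes, 17.7%, and chromosomes 17, 14 and 18 reach 22% or more.

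On the autosomes, to which the values of this paragraph are limited, neighbouring genes were called together more often than genes taken as a whole. After a called gene the next tested gene on the chromosome was called in 889 of 3454 cases (25.7%). That compares with 16.1% after a gene that was not called and 17.8% of all autosomal genes. When both were called they changed in the same direction in 60.3% of pairs. In calls the tie declined slowly with distance: the called share was 23.3% with 2 steps between the genes, 21.7% with 10 steps (a median distance of 749 kb), 20.7% with 20 steps and 19.7% with 50 steps (5131 kb). Signed log2 changes of adjacent genes correlated weakly (Pearson r of 0.070 over 19344 pairs at a median distance of 39.7 kb) and hardly at all at 4 steps (0.0080). For adjacent genes r was 0.039 with overlapping genes left out and 0.034 without unassigned symbols and tandem families, a description across genes that share haplotypes and sometimes reads. With genes without an assigned symbol and tandem families left out, the share after a called gene was 24.2% against a background of 17.9%. Among calls of at least 1 on the log2 scale it was 15.9% against 4.46%.

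Bins of 2 Mb showed the same unevenness on a larger scale. In 730 bins with at least 10 tested genes the median share called was 16%, with quartiles of 9.09% and 25%. No gene was called in 52 bins, and 61 bins (8.36%) had over double the share of all genes. The 8 densest bins lay on chromosomes 14 and 17 (2 each), 1, 4 and 11 and on the mitochondrial genome.

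The densest of all, on chromosome 14 from 4 to 6 Mb, held 14 called genes of 20, 8 higher and 6 lower. None of its 20 genes has an assigned symbol, and all belong to predicted gene models such as Gm3373 (means of 4.86 and 0.791 CPM in NZO/HlLtJ and C57BL/6J), so division of reads between similar models bears on these values and was not tested. Among the higher models, Gm26552 and Gm26893 had the same log2 change (2.20) and the same means (0.496 and 0.104 CPM). The 14 called genes are thus not 14 independent measurements. The bin on chromosome 4 from 156 Mb held 9 called genes of 14, among them Noc2l (higher, above) and the nearby Plekhn1 (log2 change −1.61 ± 0.12, adjusted p = 7.47e-12) and Perm1 (log2 change −1.85 ± 0.14, adjusted p = 1.20e-11), a muscle regulator of energy metabolism, both lower. Tnfrsf18, a tumour necrosis factor receptor of lymphocytes, was lower there too (log2 change −0.91 ± 0.19, adjusted p = 0.000775). A bin on chromosome 11 from 54 Mb, with 12 of 21 called, held Slc36a2 (lower, above), the mitochondrial complex III assembly factor Lyrm7 (log2 change 0.87 ± 0.075, adjusted p = 1.88e-10), the nuclear factor kappa B inhibitor Tnip1 (log2 change 0.60 ± 0.065, adjusted p = 1.61e-08) and the secreted glutathione peroxidase Gpx3 (log2 change 0.34 ± 0.058, adjusted p = 5.40e-05). Directions were thus mixed within each of these bins.

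On chromosome 14 from 50 Mb, 12 of 22 genes were called, in a region of ribonuclease genes. Rnase6 lay at 0.0502 to 0.19 CPM (median 0.126) in NZO/HlLtJ against 1.27 to 1.51 CPM (median 1.41) in C57BL/6J (log2 change −3.45 ± 0.40, adjusted p = 7.46e-08). Ang, encoding angiogenin, lay at 0.188 to 0.502 CPM (median 0.346) against 1.13 to 2.03 CPM (median 1.63) (log2 change −2.19 ± 0.24, adjusted p = 2.91e-08). Pnp2, a purine nucleoside phosphorylase gene, was at 0 to 0.355 CPM (median 0) against 1.21 to 2.18 CPM (median 1.38) (log2 change −6.40 ± 0.68, adjusted p = 9.27e-08). All 3 were low in every NZO/HlLtJ library, whereas Ccnb1ip1, a meiotic crossover gene, was seen mainly in NZO/HlLtJ (0.38 to 0.904 CPM (median 0.66) against 0 to 0.0319 CPM (median 0); log2 change 5.54 ± 0.58, adjusted p = 1.01e-08). On chromosome 1 from 168 Mb, 6 of 11 genes were called. Of these, 3 models without an assigned symbol changed by over 1 on the log2 scale at means under 1 CPM, and the genes with a symbol were Ccdc190 (log2 change 0.51 ± 0.094, adjusted p = 0.00017), Hsd17b7 (log2 change −0.39 ± 0.10, adjusted p = 0.0049), an enzyme of steroid and cholesterol synthesis, and Ddr2 (log2 change −0.82 ± 0.22, adjusted p = 0.00887), a collagen receptor kinase.

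Chromosome 17 contributed a pair of dense bins and a run of proteases. From 6 to 8 Mb, 16 of 26 genes were called, most of them in a segment with repeated copies of Dynlt1, Tmem181, Rsph3 and Tagap. Tagap, a GTPase-activating protein of T cells, lay at 13.4 to 17.7 CPM (median 15.1) in NZO/HlLtJ against 1.91 to 3.69 CPM (median 2.78) in C57BL/6J (log2 change 2.46 ± 0.12, adjusted p = 1.34e-16; chr17:7926000-7934897). Tagap1 lay at 12.4 to 16.7 CPM (median 14.4) against 37.6 to 40.8 CPM (median 39.5) (log2 change −1.43 ± 0.074, adjusted p = 1.15e-15). The pair thus moved in opposite directions and summed to a mean of 29.6 CPM against 42.2 CPM, without overlap. The dynein light chain copies Dynlt1b (log2 change 0.79 ± 0.13, adjusted p = 1.86e-05) and Dynlt1c (log2 change 0.91 ± 0.10, adjusted p = 3.12e-08) were both higher, and Dynlt1a (log2 change −1.67 ± 0.17, adjusted p = 5.60e-09) and Rsph3a (log2 change −0.99 ± 0.11, adjusted p = 2.87e-08) lower. From 16 to 18 Mb, Fpr2 (log2 change 2.46 ± 0.45, adjusted p = 0.000138), a formyl peptide receptor, and Has1 (log2 change 1.07 ± 0.17, adjusted p = 1.85e-05), a hyaluronan synthase, were higher, and the zinc finger genes Zfp960 (log2 change −0.76 ± 0.12, adjusted p = 9.55e-06) and Zfp97 (log2 change −0.69 ± 0.10, adjusted p = 9.35e-06) lower. Near 24 Mb lie 4 tested genes of serine proteases, all of them higher. Prss41 lay at 5.95 to 8.0 CPM (median 6.05) against 0.0365 to 0.287 CPM (median 0.153) (log2 change 5.45 ± 0.24, adjusted p = 2.55e-17), Prss32 at 0.226 to 0.432 CPM (median 0.273) against 0 to 0.0291 CPM (median 0) (log2 change 4.40 ± 0.71, adjusted p = 2.89e-05). Prss33 (log2 change 3.77 ± 0.65, adjusted p = 5.86e-05) and Prss30 (log2 change 0.85 ± 0.26, adjusted p = 0.0183) were less far apart, and Prss30 was no longer called without C57BL/6J female 3 or without NZO/HlLtJ male 2.

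Runs of consecutive called genes in 1 direction were mostly short. Of the called genes, 2582 stood alone, 339 runs held 2 genes, 62 held 3, 15 held 4 and 5 held 5, with 1 run each of 6, 7 and 11 genes. The longest run held 11 genes on chromosome 18 (chr18:37668953-37841873), all lower, and fell within the gamma protocadherins, cadherin-like adhesion proteins that give neurons a surface identity. Pcdhga8 lay at 3.86 to 6.81 CPM (median 5.55) in NZO/HlLtJ against 12.4 to 15.8 CPM (median 13.9) in C57BL/6J (log2 change −1.35 ± 0.092, adjusted p = 7.24e-13). Pcdhga3 lay at 6.21 to 8.39 CPM (median 6.96) against 13.7 to 16.8 CPM (median 15.1) (log2 change −1.11 ± 0.09, adjusted p = 3.70e-11), and Pcdhga7 at 12.3 to 15.6 CPM (median 13.3) against 21.4 to 32.2 CPM (median 23.4) (log2 change −0.86 ± 0.084, adjusted p = 2.53e-09). In all 3 every NZO/HlLtJ library was below every C57BL/6J library, although a second entry with the symbol Pcdhga8, outside the run, was not called. The median of the run was −0.73 and its members ranged from −1.49 for the model Gm37165 to −0.46 for Pcdhgb2. The change was not shared by the whole cluster: 9 of 13 Pcdhga genes were lower and none higher, 5 of 8 Pcdhgb genes were lower and 2 higher, and neither Pcdhgc gene was called. Both entries with the symbol Pcdhgb8 were the higher ones, the more abundant at 12 to 16.8 CPM (median 15) against 3.35 to 5.77 CPM (median 4.28) (log2 change 1.75 ± 0.11, adjusted p = 1.81e-13). In the clusters next to it, 4 of 14 Pcdha genes were lower, and 3 of 22 Pcdhb genes were higher and 3 lower. Genes of a gamma cluster share their last exons, so the division of reads among them is uncertain.

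The next longest runs were 7 lower genes on chromosome 14 and 6 on chromosome 13. The run on chromosome 14 (chr14:69327999-69683286) holds Entpd4, a nucleoside diphosphatase of the Golgi and lysosome, at 36 to 44.3 CPM (median 39.7) in NZO/HlLtJ against 56.3 to 85.2 CPM (median 77.8) in C57BL/6J (log2 change −0.91 ± 0.07, adjusted p = 1.32e-11). Its other members are predicted models. Gm21685 is nearly identical to Entpd4 (log2 change −0.90 ± 0.066, adjusted p = 4.54e-12), Gm16677 and Gm27174 had the same values in all 12 libraries, and Gm21451, at 0 in all NZO/HlLtJ libraries and at up to 0.765 CPM in C57BL/6J (adjusted p = 0.0397), was no longer called in 9 of 12 fits that left out 1 library. The 7 entries are thus not 7 independent measurements. On chromosome 13 (chr13:119462759-119654354) the run reaches from 4833420G17Rik, at 7.27 to 9.14 CPM (median 7.74) against 27.8 to 30.8 CPM (median 29.8) (log2 change −1.88 ± 0.079, adjusted p = 6.63e-18), to Ccl28, a chemokine of mucosal tissues, at 0.726 to 1.32 CPM (median 1.09) against 2.96 to 5.66 CPM (median 5.29) (log2 change −2.16 ± 0.20, adjusted p = 8.25e-10). It lies close to Nnt, which was higher. A run of 5 higher genes on chromosome 11 spans the cytokine gene Il5 (log2 change 2.27 ± 0.67, adjusted p = 0.0162), the interferon regulator Irf1 (log2 change 0.39 ± 0.10, adjusted p = 0.00484) and the carnitine transporter Slc22a5 (log2 change 0.35 ± 0.07, adjusted p = 0.000453). Il5 was at most 0.434 CPM in any library and was not called without 3 libraries that stood apart.

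Long stretches without any call also occurred. The largest by number held 81 tested genes, from Cdh8 to Has3 on chromosome 8 over 7.86 Mb, with a median level of 12.2 CPM and 65 of its genes over 1 CPM. Next was a stretch of 68 genes from Lin52 to Ptpn21 on chromosome 12 over 14.3 Mb. Absence of calls there does not show that the strains are alike in sequence.

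**Figure D4:**
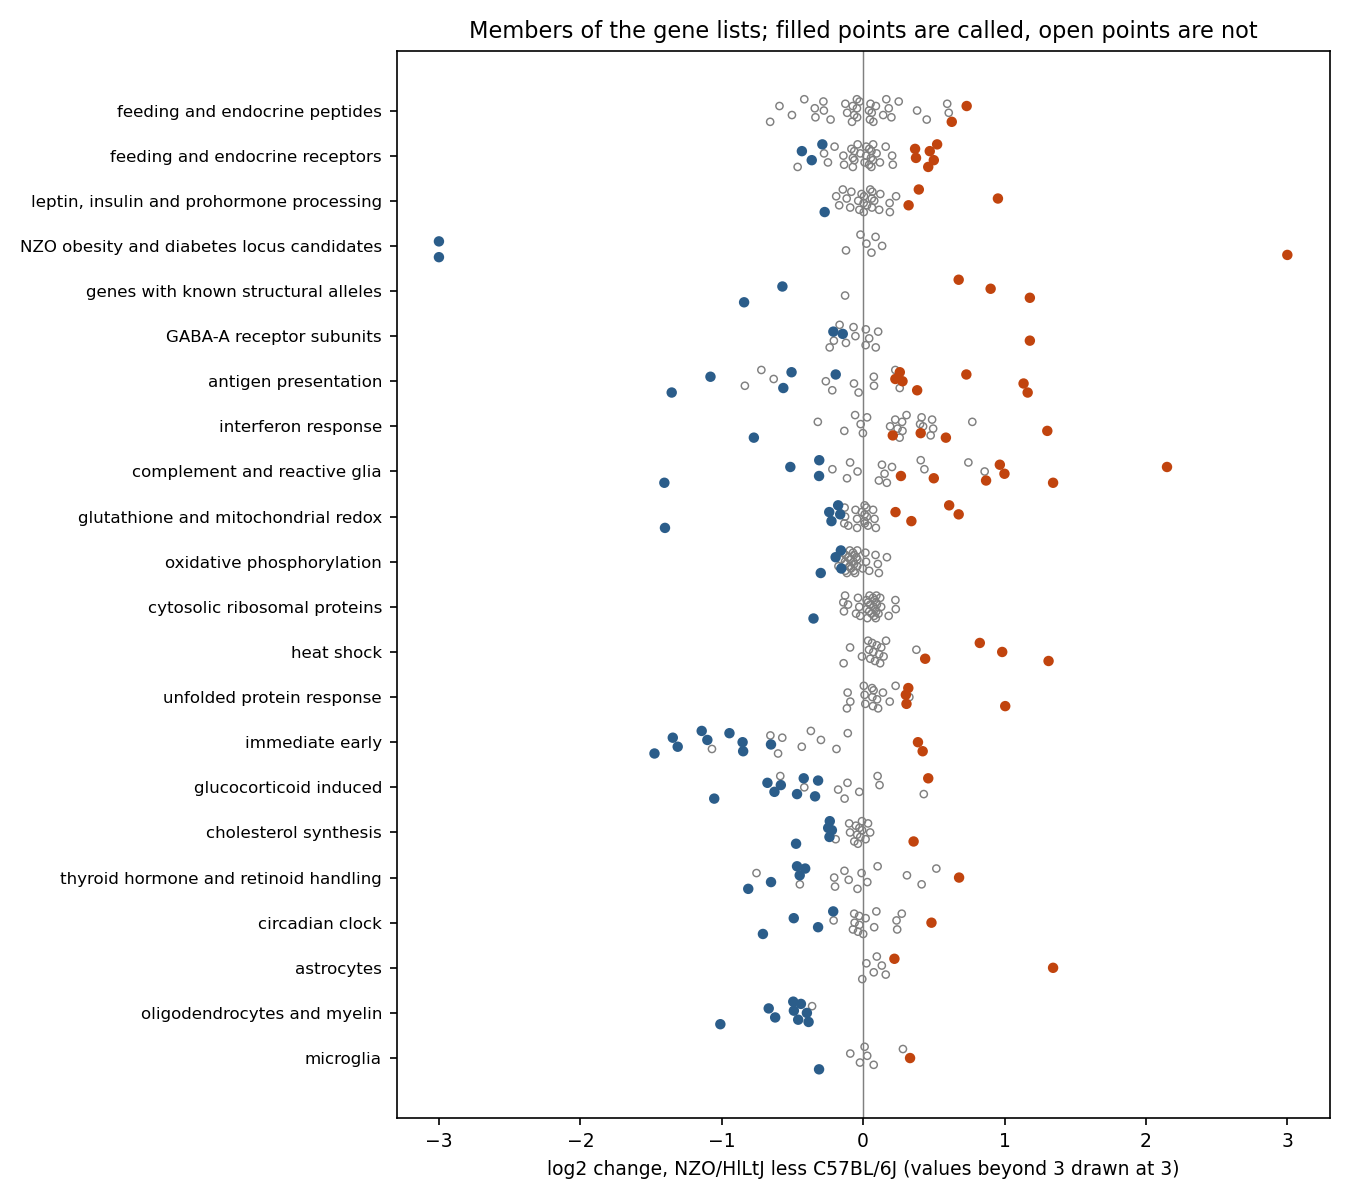
Log2 change of NZO/HlLtJ less C57BL/6J for the tested members of 19 gene lists and 3 marker lists, 1 point per gene. Filled points are called and open points are not, and values beyond 3 in either direction are drawn at 3. Immediate early and myelin genes lie mostly to the left of 0.

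Among genes of feeding control, the share called was below that of all genes in the peptide list and in the leptin list, and above it in the receptor list. Differences between these lists were not tested. Of 35 feeding and endocrine peptide genes tested, 2 were higher and none lower, 5.71% called where 17.7% of all genes were. Cartpt, a peptide that restrains feeding, lay at 58.2 to 65.8 CPM (median 62.5) in NZO/HlLtJ against 29.8 to 45.3 CPM (median 38.1) in C57BL/6J (log2 change 0.73 ± 0.12, adjusted p = 1.77e-05). Pmch, which encodes melanin-concentrating hormone and promotes feeding, lay at 388 to 494 CPM (median 409) against 213 to 343 CPM (median 269) (log2 change 0.63 ± 0.15, adjusted p = 0.00333). Both genes were higher in all 6 NZO/HlLtJ libraries, without overlap, but Pmch was not called without the 3 libraries that stood apart, which left 1 gene of the list. Npy, a potent inducer of feeding, lay at 8.06 to 22.1 CPM (median 14.6) against 15.9 to 24.6 CPM (median 19.4) with overlap and was not called (log2 change −0.50 ± 0.22, adjusted p = 0.125), and the thyrotropin-releasing hormone gene Trh was not called either (log2 change 0.38 ± 0.16, adjusted p = 0.105). The list's median was −0.025.

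Of 37 receptor genes, 6 were higher and 3 lower (24.3%, where 17.7% of all genes were called), and 3 were higher without the 3 libraries that stood apart. The melanin-concentrating hormone receptor Mchr1 was lower, at 7.88 to 9.26 CPM (median 8.49) against 9.11 to 13 CPM (median 11.8) (log2 change −0.43 ± 0.083, adjusted p = 0.000242), the reverse of its ligand. The strains overlapped slightly in Mchr1. The neurotensin receptor Ntsr2 was higher, at 143 to 168 CPM (median 148) against 100.5 to 121 CPM (median 107) (log2 change 0.47 ± 0.063, adjusted p = 1.27e-06), as were the oxytocin receptor Oxtr (log2 change 0.46 ± 0.085, adjusted p = 0.000149) and the thyrotropin-releasing hormone receptor Trhr (log2 change 0.52 ± 0.10, adjusted p = 0.000223). The melanocortin receptor Mc4r, which mediates satiety, was also higher (log2 change 0.50 ± 0.14, adjusted p = 0.0112) and was not called without the 3 libraries that stood apart. Higher too were Crhr2 and Galr1, which were not called in 5 of 12 fits that left out 1 library and in 8 of them respectively, while Npy2r and Nr3c2 were lower.

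In the leptin, insulin and prohormone processing list, 3 of 27 genes were higher and 1 lower (14.8%, where 17.7% of all genes were called). With C57BL/6J female 3 or C57BL/6J male 3 left out, 2 were lower. Stat3, the transcription factor that carries the leptin signal, lay at 113 to 141 CPM (median 126) in NZO/HlLtJ against 85.6 to 102 CPM (median 96.9) in C57BL/6J (log2 change 0.39 ± 0.045, adjusted p = 6.47e-08). Socs3, its target and feedback inhibitor, lay at 3.9 to 8.23 CPM (median 7.49) against 2.52 to 4.61 CPM (median 3.48) (log2 change 0.95 ± 0.16, adjusted p = 4.18e-05). Stat3 was higher in all NZO/HlLtJ libraries, while the Socs3 ranges overlapped. Mrap2, an accessory protein of the melanocortin receptors, was higher (log2 change 0.32 ± 0.077, adjusted p = 0.00297), and Foxo1, a transcription factor held back by insulin, was lower (log2 change −0.27 ± 0.066, adjusted p = 0.0034). The leptin receptor gene Lepr lay at 9.52 to 12.6 CPM (median 10.1) against 7.05 to 12.3 CPM (median 10.7) and was not called (log2 change 0.059 ± 0.17, adjusted p = 0.872).

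Candidate genes of published obesity and diabetes loci of NZO/HlLtJ differed at 3 of 9 tested (33.3%, where 17.7% of all genes were called). Ifi202b, a DNA-binding interferon-inducible gene proposed for an obesity locus on chromosome 1, lay at 0.301 to 1.24 CPM (median 0.677) in NZO/HlLtJ against 0 to 0.0637 CPM (median 0.0171) in C57BL/6J (log2 change 4.97 ± 0.62, adjusted p = 2.89e-07). Its neighbour Mndal lay at 0 to 0.0394 CPM (median 0) against 0.637 to 1.31 CPM (median 0.837) (log2 change −7.06 ± 0.62, adjusted p = 6.47e-10). Apoa2, an apolipoprotein gene, lay at 0 to 0.0376 CPM (median 0) against 0.319 to 0.73 CPM (median 0.487) (log2 change −6.14 ± 0.60, adjusted p = 1.20e-08). The strains did not overlap in any of the 3, and levels were low in both. Zfp69 (log2 change −0.019 ± 0.22, adjusted p = 0.972), Pctp (log2 change 0.088 ± 0.18, adjusted p = 0.809), Abcg1 (log2 change 0.023 ± 0.045, adjusted p = 0.794) and Tbc1d1 (log2 change 0.13 ± 0.062, adjusted p = 0.145) were not called.

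Of 6 genes with structural alleles known between mouse strains, 5 were called (83.3%, where 17.7% of all genes were). Nnt, a mitochondrial proton pump that makes NADPH and carries a deletion in C57BL/6J, lay at 36 to 39.8 CPM (median 37.8) in NZO/HlLtJ against 21.2 to 25.4 CPM (median 24) in C57BL/6J (log2 change 0.68 ± 0.05, adjusted p = 4.31e-12). Gabra2, a GABA-A receptor subunit for which C57BL/6J carries a deletion in an intron, was at 164 to 187 CPM (median 181) against 74.4 to 86.1 CPM (median 76.7) (log2 change 1.18 ± 0.061, adjusted p = 1.17e-15). Both were higher in every NZO/HlLtJ library. Alad, an enzyme of heme synthesis whose copy number varies, lay at 26.3 to 29 CPM (median 28.4) against 13.6 to 16.4 CPM (median 15.2) (log2 change 0.90 ± 0.069, adjusted p = 1.04e-11) and was higher in every NZO/HlLtJ library as well. Among all 14 GABA-A receptor subunits, Gabra2 was the only one higher, and 2 were lower (21.4% called, near the 17.7% of all genes). Only 1 was lower in 7 of 12 fits that left out 1 library, and without the 2 high in thalamus markers.

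Ide, the insulin-degrading enzyme, was called although the strains overlapped. It was lower (log2 change −0.84 ± 0.12, adjusted p = 5.33e-06), at 54.3 to 58.6 CPM (median 57) in NZO/HlLtJ against 54.9 to 117 CPM (median 109) in C57BL/6J, and the C57BL/6J values fell into separate levels: 5 libraries lay at 108 to 117 CPM and C57BL/6J male 2 at 54.9 CPM, within the NZO/HlLtJ range. On the HFHS diet, 2 C57BL/6J libraries lay at 109 to 117 CPM and 4 at 53.3 to 59.9 CPM. A duplication that covers Ide is known to segregate in C57BL/6J colonies. The log2 change on HFHS was −0.41, and this description was made after the values were seen.

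Some genes of reactive astrocytes and those of complement C4 were higher in NZO/HlLtJ, while Spp1 and complement C1q were lower. Of 24 genes of the complement and reactive glia list, 7 were higher and 4 lower, with a median of 0.19. That is 45.8% called, where 17.7% of all genes were, and the rest of the list was not called. Spp1 had the smallest p of the 4 lower genes. C4b, a complement component, lay at 233 to 406 CPM (median 290.3) in NZO/HlLtJ against 49.6 to 85.1 CPM (median 69.5) in C57BL/6J (log2 change 2.15 ± 0.10, adjusted p = 3.23e-17). Its copy C4a was higher too (log2 change 1.14 ± 0.16, adjusted p = 2.89e-06). Gfap, the intermediate filament of astrocytes, lay at 525 to 939.9 CPM (median 649) against 190.2 to 324 CPM (median 277) (log2 change 1.34 ± 0.18, adjusted p = 1.50e-06), and the protease inhibitor Serpina3n at 57.9 to 121 CPM (median 82.6) against 35.6 to 51.9 CPM (median 41.7) (log2 change 0.97 ± 0.11, adjusted p = 5.32e-08). In these 3 genes the lowest NZO/HlLtJ library exceeded the highest C57BL/6J library. The cytokine receptor Osmr was higher (log2 change 1.00 ± 0.17, adjusted p = 3.35e-05), and C1qa, C1qb and C1qc, the chains of complement C1q, were lower (log2 changes of −0.31, −0.51 and −0.31). C1qa was not called in 5 of 12 fits that left out 1 library, and C1qc was not called without C57BL/6J male 1. The count of higher genes fell to 4 without NZO/HlLtJ female 3, and that of lower genes to 2 without C57BL/6J male 1. Of 8 astrocyte markers 2 were higher, Gfap and the gap junction gene Gja1 (log2 change 0.22 ± 0.068, adjusted p = 0.0207; not called without C57BL/6J male 1 or without NZO/HlLtJ female 2), and of 8 microglia markers 1 was higher, P2ry12 (log2 change 0.33 ± 0.094, adjusted p = 0.0119), and 1 lower, C1qa. Their summed levels were 4187 to 5079 CPM in the NZO/HlLtJ libraries and 3572 to 4063 CPM in the C57BL/6J libraries for astrocytes, and 219 to 263 CPM in the NZO/HlLtJ libraries and 223 to 258 CPM in the C57BL/6J libraries for microglia.

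Myelin genes were lower in NZO/HlLtJ. Of 10 markers of oligodendrocytes and myelin 9 were lower and none higher, where 9.29% of all genes were lower, with a median of −0.47. Mbp, myelin basic protein, lay at 1237 to 1652 CPM (median 1402) in NZO/HlLtJ against 1633 to 2269.5 CPM (median 1882) in C57BL/6J (log2 change −0.40 ± 0.12, adjusted p = 0.0204), and Opalin, a late oligodendrocyte gene, at 7.37 to 9.57 CPM (median 8.21) against 12.4 to 22.4 CPM (median 16.4) (log2 change −1.01 ± 0.16, adjusted p = 2.68e-05). Opalin was lower in every NZO/HlLtJ library, while in Mbp the strains overlapped only at the edges of their ranges, and Mbp was not called in 4 of 12 fits that left out 1 library. The summed level of the markers was 3271 to 4204 CPM in the NZO/HlLtJ libraries and 4343 to 6092 CPM in the C57BL/6J libraries. Mog was the exception (log2 change −0.36 ± 0.14, adjusted p = 0.0795). The count was 5 without C57BL/6J male 1, 4 without the 3 libraries that stood apart and 4 without the 2 high in thalamus markers. None of 4 markers of oligodendrocyte precursors was called, and Padi2, which oligodendrocytes express, was higher.

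Antigen presentation genes differed at 12 of 23 (52.2%, where 17.7% of all genes were called), 7 higher and 5 lower. The lower genes were 3 without either set of libraries and in 5 of the 12 fits that left out 1 library, those without C57BL/6J male 1, C57BL/6J male 2, NZO/HlLtJ female 1, NZO/HlLtJ male 1 or NZO/HlLtJ male 2. H2-DMa, a chaperone of peptide loading on class II molecules, lay at 9.11 to 12.3 CPM (median 11) in NZO/HlLtJ against 3.72 to 5.37 CPM (median 5.21) in C57BL/6J (log2 change 1.13 ± 0.12, adjusted p = 1.21e-08). The class I gene H2-K1 lay at 9.86 to 15.1 CPM (median 12.6) against 20.7 to 30.8 CPM (median 26.8) (log2 change −1.08 ± 0.13, adjusted p = 2.10e-07). The strains did not overlap in either gene. Nlrc5, which activates class I transcription, was higher (log2 change 1.16 ± 0.17, adjusted p = 4.91e-06), as was the immunoproteasome subunit Psmb8 (log2 change 0.73 ± 0.13, adjusted p = 9.46e-05). Over the 30 H2 genes tested, 6 were higher (20%) and 9 lower (30%), where 8.44% of all genes were higher and 9.29% lower. H2-Q2 lay at 0.828 to 1.37 CPM (median 1.08) against 15.2 to 21 CPM (median 18.8) (log2 change −4.11 ± 0.13, adjusted p = 4.76e-21), H2-Bl at 2.66 to 3.71 CPM (median 2.85) against 0.255 to 0.953 CPM (median 0.592) (log2 change 2.40 ± 0.19, adjusted p = 1.38e-11). H2-Ea-ps, the class II gene whose promoter is deleted in C57BL/6J and whose reference entry is a pseudogene, lay at 0.451 to 2.24 CPM (median 1.17) against 0 to 0.0342 CPM (median 0) (log2 change 7.08 ± 0.68, adjusted p = 8.20e-09). These genes are highly variable between haplotypes and similar to each other, and the part of mapping in them was not tested. Of 25 interferon response genes 4 were higher and 1 lower (20% called, near the 17.7% of all genes). The count of higher genes ran from 2 without NZO/HlLtJ female 2 to 10 without C57BL/6J male 2, with 2 lower without NZO/HlLtJ male 3. Ifi27l2a (log2 change 1.30 ± 0.18, adjusted p = 3.03e-06) and Irf9 (log2 change 0.59 ± 0.083, adjusted p = 3.13e-06) were the higher genes with the smallest p, and Ifit3 was lower (log2 change −0.77 ± 0.17, adjusted p = 0.00108).

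Activity-dependent and stress genes differed, in counts that moved with single libraries. Of 20 immediate early genes, which neurons switch on within minutes of activity, 9 were lower (45%) and 2 higher (10%), with a median of −0.65. Of all genes 9.29% were lower and 8.44% higher. Nr4a1 lay at 10.9 to 20.5 CPM (median 17.4) in NZO/HlLtJ against 11.6 to 100.8 CPM (median 35.6) in C57BL/6J (log2 change −1.31 ± 0.28, adjusted p = 0.000828), Arc at 9.52 to 14.3 CPM (median 11.1) against 13 to 28.2 CPM (median 20.7) (log2 change −0.85 ± 0.18, adjusted p = 0.000645). Both overlapped between the strains, since C57BL/6J male 3 lay low among its strain. Mean levels of the list, centred on the log2 scale, ran from −0.91 in that library to 1.03 in C57BL/6J female 3, and from −0.69 to 0.012 in NZO/HlLtJ. The count of lower genes was 6 to 12 when 1 library was left out, with 6 without C57BL/6J female 3. Jun was higher (log2 change 0.42 ± 0.093, adjusted p = 0.00126) and was not called without the 3 libraries that stood apart, which left 1 higher gene. Of 18 genes induced by glucocorticoids, 8 were lower (44.4%, where 9.29% of all genes were) and 1 higher. The lower genes were 4 without C57BL/6J male 1 and 5 without NZO/HlLtJ female 3 or without NZO/HlLtJ male 3, and none was higher in 5 of the 12 fits. Arrdc2 (log2 change −1.05 ± 0.16, adjusted p = 1.02e-05), Tsc22d3 (log2 change −0.68 ± 0.17, adjusted p = 0.00364) and the metallothionein Mt2 (log2 change −0.63 ± 0.14, adjusted p = 0.00105) were among them. The clock genes Ciart (log2 change −0.71 ± 0.11, adjusted p = 1.49e-05) and Bhlhe40 (log2 change −0.49 ± 0.072, adjusted p = 5.81e-06) were lower and Rorb (log2 change 0.48 ± 0.081, adjusted p = 3.98e-05) higher. Of 19 clock genes 4 were lower and 1 higher (26.3% called, where 17.7% of all genes were). The lower genes were 2 without C57BL/6J female 3, C57BL/6J male 2 or NZO/HlLtJ male 3, and 2 were higher in 5 of the 12 fits. The time of day of collection is not given in the sources used.

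Some heat shock and unfolded protein response genes were higher. Of 20 heat shock genes 4 were higher and none lower, and likewise 4 of 20 in the unfolded protein response, where 8.44% of all genes were higher. Without the 3 libraries that stood apart 2 of each list were higher, and Hspa1b was not called. Hspa1b, an inducible chaperone with a near-identical copy, lay at 15 to 52.6 CPM (median 24) in NZO/HlLtJ against 5.57 to 21.9 CPM (median 9.55) in C57BL/6J (log2 change 1.31 ± 0.35, adjusted p = 0.00841), and its copy Hspa1a at 27.4 to 73.7 CPM (median 36.8) against 12.5 to 33.4 CPM (median 20.3) (log2 change 0.98 ± 0.24, adjusted p = 0.00284). The strains overlapped in both. Atf3 (log2 change 1.00 ± 0.26, adjusted p = 0.00611), Hspa5 (log2 change 0.30 ± 0.091, adjusted p = 0.019) and Pdia4 (log2 change 0.32 ± 0.11, adjusted p = 0.0325) were among the unfolded protein response genes that were higher, Pdia4 being not called in 7 of 12 fits that left out 1 library and Hspa5 in 2 of them. In that list 2 were higher without C57BL/6J male 3, without NZO/HlLtJ female 3 and without the 2 high in thalamus markers, where Atf3 was not called.

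Transcripts of the mitochondrial genome were lower in NZO/HlLtJ, and few nuclear genes of energy metabolism were called. Of 35 nuclear genes of oxidative phosphorylation 4 were lower and none higher (11.4%), the smallest p being that of Sdha, a subunit of complex II (408 to 438 CPM (median 418) against 458 to 492 CPM (median 463); log2 change −0.16 ± 0.031, adjusted p = 0.000362). That share lies near the 9.29% of all genes that were lower, and the count was 2 without C57BL/6J male 1, without NZO/HlLtJ female 1 or without the 2 libraries high in thalamus markers, 1 without the 3 that stood apart, and 6 lower and 4 higher with 2 surrogate variables. The mitochondrial genome itself gave 10 lower genes of 15, with mt-Nd3, a complex I subunit, at 84 to 123 CPM (median 95.8) against 189.9 to 231 CPM (median 211) (log2 change −1.10 ± 0.15, adjusted p = 2.52e-06) and mt-Nd2 at 1664 to 2186 CPM (median 1782) against 2406 to 3409 CPM (median 3054) (log2 change −0.68 ± 0.093, adjusted p = 1.73e-06). All 3 genes were lower in every NZO/HlLtJ library. Mitochondrial transcripts are cut from shared precursors, and the count of lower genes was 7 to 11 when 1 library was left out and 6 without the 2 high in thalamus markers. In cholesterol synthesis 5 of 20 genes were lower (25%) and 1 higher, where 9.29% of all genes were lower. Of the lower genes, Sc5d, a desaturase of the late pathway, lay at 37.4 to 44.8 CPM (median 42.8) against 53.4 to 62.8 CPM (median 58.8) (log2 change −0.47 ± 0.058, adjusted p = 2.52e-07). The lower genes were 3 in 5 of the 12 fits, those without C57BL/6J female 2, C57BL/6J male 1, C57BL/6J male 3, NZO/HlLtJ female 3 or NZO/HlLtJ male 2, and without the 3 libraries that stood apart. Of 33 cytosolic ribosomal protein genes 1 was lower, Rpl5 (log2 change −0.35 ± 0.093, adjusted p = 0.00709), 3.03% of the list where 9.29% of all genes were lower. In that list 2 were lower without NZO/HlLtJ female 3, and 11 were higher and 2 lower with 2 surrogate variables. In the thyroid hormone and retinoid list 5 of 19 were lower (26.3%, where 9.29% of all genes were), and 3 without C57BL/6J female 1. Among them was the retinaldehyde dehydrogenase Aldh1a1 (log2 change −0.65 ± 0.16, adjusted p = 0.00279), and Rbp4 was higher and not called in 3 of 12 fits that left out 1 library. Of the 364 zinc finger genes with Zfp symbols, 56 were higher (15.4%) and 27 lower (7.42%), where 8.44% of all genes were higher and 9.29% lower. The higher genes were 36 without C57BL/6J male 1, and without the 3 libraries that stood apart 31 were higher and 25 lower. Among those with small p were Zfp658 (log2 change 1.51 ± 0.11, adjusted p = 3.51e-12) and Zfp125 (log2 change −3.04 ± 0.17, adjusted p = 1.20e-14), besides Zfp949.

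Markers of other tissues were low or did not separate the strains, with few exceptions. Pituitary markers summed to 8.88 to 21.7 CPM in the NZO/HlLtJ libraries and 2.18 to 9.15 CPM in the C57BL/6J libraries. One of 6, the glycoprotein hormone subunit Cga, was higher (log2 change 1.73 ± 0.59, adjusted p = 0.0392), and it was not called in 7 of 12 fits that left out 1 library. None of the 9 choroid plexus markers, 10 thalamus markers or 8 striatum markers was called. Of 6 cortex and hippocampus markers 1 was lower, and of 7 blood markers 1 was higher, Hba-a1. Without C57BL/6J male 2, 2 blood markers were higher. The blood markers summed to 706 to 1767 CPM in the NZO/HlLtJ libraries and 350 to 1119 CPM in the C57BL/6J libraries. The neuronal markers Snap25 (log2 change −0.17 ± 0.055, adjusted p = 0.0256) and Tubb3 (log2 change −0.14 ± 0.048, adjusted p = 0.036) were lower by small amounts and were not called in 4 and 8 of 12 fits that left out 1 library.

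The comparison within each sex gave fewer calls and the same directions. In females alone 1544 genes (7.7%) and in males alone 1891 genes (9.43%) were called, with 3 against 3 libraries each. Of the genes called over both sexes, 3548 had the same sign in females and males (99.8%), where 69.7% of all tested genes did, a share that calling over both sexes favours. For the difference between the sexes no gene was called (0%) by edgeR, DESeq2 or limma, with 672 genes at an unadjusted p under 0.05. C4b, for instance, changed by 1.78 in females and 2.52 in males, and Gfap by 1.04 and 1.65, differences that were not called.

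On the HFHS diet, in 12 other libraries, the same comparison called 3160 genes (15.8%). Of the genes called on control diet, 3371 (94.8%) had the same sign on HFHS and 2116 (59.5%) were also called in the same direction, which is 67.0% of the genes called on HFHS, while 3 were called in opposite directions. The log2 changes on both diets correlated across the called genes with r of 0.94, a description over genes that are not independent. For the difference between diets edgeR called no gene (0%), with 1336 at an unadjusted p under 0.05, limma none and DESeq2 5. The 24 named genes with the smallest p held their direction on HFHS, for example Zfp949 (1.48), Scg5 (1.00), Fggy (−3.02) and Fcrls (−3.29). The inducible chaperone pair did not: Hspa1b was at −1.22 on HFHS (adjusted p = 0.0237), with 3.84 to 5.73 CPM in NZO/HlLtJ and 5.03 to 21.5 CPM in C57BL/6J, and Hspa1a at −0.55 (adjusted p = 0.133). Npy was at 0.79 on HFHS (adjusted p = 0.0136) and Socs3 at 0.39 (adjusted p = 0.0918).

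The 6 CAST/EiJ libraries on control diet gave a further level against which to set both strains. Over the 3555 called genes the CAST/EiJ mean was nearer C57BL/6J in 1774 (49.9%) and nearer NZO/HlLtJ in 1781. Zfp949, at 25 ± 1.61 CPM (mean ± SD, n = 6) in CAST/EiJ, Fggy at 15.3 ± 0.765 CPM and Fcrls at 16.7 ± 3.8 CPM were nearer the C57BL/6J levels. Scg5 at 345 ± 52 CPM, Gabra2 at 184 ± 15.9 CPM, Wdfy1 at 124 ± 4.0 CPM and Myo7a at 8.26 ± 2.55 CPM were nearer the NZO/HlLtJ levels.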

How the data were processed

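Raw reads were processed by the authors. The deposited table holds expected counts per gene, that is, estimated counts in which reads matching several places are shared out, per the file headers. A second deposited table holds log2 values after the variance-stabilizing transformation (VST) of DESeq2, per the submitters' processing notes, which also name GRCm38. The aligner, the counter and the use of strand are not given in the sources used, which leaves overlapping and antisense genes uncertain. Here the expected counts were rounded (21.4% of values were not whole; library totals moved by at most 0.00019%), since the design had assumed whole counts. edgeR 4.0.16 in R 4.3.3 filtered genes by expression over the 12 groups of strain, diet and sex, scaled libraries by TMM and fitted all 36 libraries with 24 residual degrees of freedom. The contrast was the mean of the female and male NZO/HlLtJ groups less that of C57BL/6J. The fit was tested on simulated data. Genes were named by rule: 12 by p and 6 by size of change in either direction, out of the called genes that have an assigned symbol and average 1 CPM or more, up to 4 of each list or family, the 8 densest bins and the 3 longest runs; others were chosen after their values were seen. Some genes that the rule names are not reported here. The comparison, the lists and the markers were chosen with earlier results of these data known. Shared sequence was counted in windows of 100 bases between GENCODE M21 transcripts of 19962 tested genes. Centred levels are log2 CPM with a prior count of 2. Alternatives were DESeq2 1.42.0, limma 3.58.1 on the VST values, other scalings and filters, 2 surrogate variables (sva 3.50.0), a test against a 1.5-fold change and libraries left out; leaving out the 3 libraries and the 2 libraries that stood apart was added after the data were seen.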

Additional observations from a re-analysis of the deposited data

Results flagged for a closer look

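In 22 of 340 groups of 6 libraries, over the named genes in both strains, 1 library stood far from the others: its gap to the next value divided by the range of its group exceeded Dixon's critical value for groups of that size. That is 6.47% of the groups, where chance flags about 1 in 20, and some of the flagged values were under 1 CPM. NZO/HlLtJ male 1 was highest for Apoa2 at 0.0376 CPM (next 0 CPM; ratio 1). C57BL/6J female 3 was highest for Atf3 at 4.11 CPM (next 2.07 CPM; ratio 0.696), highest for Bhlhe40 at 92.9 CPM (next 74.5 CPM; ratio 0.697), highest for Nr4a1 at 100.8 CPM (next 40.0 CPM; ratio 0.682) and highest for Pcdhga7 at 32.2 CPM (next 24.3 CPM; ratio 0.726). C57BL/6J male 3 was lowest for Ddr2 at 8.4 CPM (next 16.3 CPM; ratio 0.664), highest for Pgk1-rs7 at 10.3 CPM (next 0.89 CPM; ratio 0.913) and highest for Pla2g4e at 14 CPM (next 7.45 CPM; ratio 0.841). NZO/HlLtJ male 2 was lowest for Dynlt1a at 0.452 CPM (next 1.16 CPM; ratio 0.9). C57BL/6J female 2 was highest for Gm21451 at 0.765 CPM (next 0.203 CPM; ratio 0.734). NZO/HlLtJ male 3 was highest for H2-Bl at 3.71 CPM (next 2.97 CPM; ratio 0.708). C57BL/6J female 1 was highest for Hba-a1 at 16.8 CPM (next 5.13 CPM; ratio 0.728), highest for Myo7a at 52.2 CPM (next 44.9 CPM; ratio 0.634), lowest for Slc25a17 at 31.9 CPM (next 35.2 CPM; ratio 0.7) and highest for Trh at 108 CPM (next 67.9 CPM; ratio 0.677). C57BL/6J male 2 was lowest for Ide at 54.9 CPM (next 108 CPM; ratio 0.859) and highest for Zfp97 at 9.81 CPM (next 7.61 CPM; ratio 0.642). NZO/HlLtJ female 1 was highest for Mndal at 0.0394 CPM (next 0 CPM; ratio 1), highest for Perm1 at 3.12 CPM (next 2.01 CPM; ratio 0.627), highest for Pnp2 at 0.355 CPM (next 0 CPM; ratio 1) and highest for Rpl5 at 15.9 CPM (next 13.7 CPM; ratio 0.63). C57BL/6J male 1 was highest for Prss33 at 0.183 CPM (next 0.0291 CPM; ratio 0.841). The Ide value is the one described with that gene's levels on both diets, and no explanation was tested for the others.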

How the results depend on the processing

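The 3555 calls became 606 when a change beyond 1.5-fold was tested, 2184 at an adjusted p under 0.01 and 881 with a log2 change of at least 1. Other fits gave 3561 (median-ratio size factors), 3818 (DESeq2), 3695 (limma), 3458 (no filter), 3101 (strict filter), 3928 (only the 12 libraries), 3425 (additive sex term), 4074 (2 surrogate variables) and 3545 (genes above 1% of counts left out). Leaving out 1 library gave 2906 to 3467 calls for both sexes, 1116 to 1551 for females, 1277 to 1912 for males and 0 to 0 for the difference between sexes. Without the 3 libraries that stood apart there were 2416 calls and 950 for males, and without the 2 high in thalamus markers 2834 and 915 for females. The share of called genes after a called gene was 15.9% for changes of at least 1 on the log2 scale and 24.2% without unassigned symbols and tandem families. Bins over double the background made up 17.3% for changes of at least 1 and 12.6% with 1 Mb bins. On HFHS, alternatives gave 2699 to 4058 calls.

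Of 151 called genes named in the text, none reversed, and 134 were called in each fit that left out 1 library, 128 under every setting other than the test beyond 1.5-fold. Without the 3 libraries that stood apart 18 (Bpifa1, Cga, Crhr2, Galr1, Gm16677, Gm21451, Gm27174, Hspa1b, Hspa5, Il5, Jun, Mbp, Mc4r, Pdia4, Pmch, Prss30, Snap25, Tubb3) were not called, and without the 2 high in thalamus markers 8 (Atf3, Cga, Galr1, Gm16677, Gm21451, Gm27174, Mbp, Snap25). The exceptions when 1 library was left out, with the number of such fits and the highest adjusted p from edgeR, were Bpifa1 (2, up to 0.0621), C1qa (5, up to 0.126), C1qc (1, up to 0.0768), Cga (7, up to 0.107), Crhr2 (5, up to 0.0867), Galr1 (8, up to 0.121), Gja1 (2, up to 0.0691), Gm16677 (4, up to 0.0781), Gm21451 (9, up to 0.101), Gm27174 (3, up to 0.0647), Hspa5 (2, up to 0.0966), Mbp (4, up to 0.0856), Pdia4 (7, up to 0.166), Prss30 (2, up to 0.0665), Rbp4 (3, up to 0.0708), Snap25 (4, up to 0.0927), Tubb3 (8, up to 0.121). Fits by sex with an additive sex term, and HFHS with only its own libraries, were not run. No paired analysis was possible because the labels give no numbers shared between the strains. With 3 libraries per strain and sex, small differences between sexes are not detectable at this depth of replication, and genes under 1 CPM had a median standard error of 0.43 where those over 100 CPM had 0.053.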
